A study of Mus musculus with 2 samples.

Results

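The genes described here are 8 mouse genes: Acta2, Tagln, Myl9, Cnn1, Tpm1, Tpm2 and Cald1, whose proteins are best known from the actin and myosin filaments of smooth muscle, and Thbs1, whose protein is secreted into the matrix. They were matched by symbol, each on 1 line of the 27998 gene lines of the deposited tables. The members were selected on measured values, namely their levels in an earlier reading of these same libraries, so their differences by day and by cell group are descriptions and not tests.

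Smooth muscle shortens when myosin pulls on filaments of alpha-actin, and tropomyosins, calponin and caldesmon sit along those filaments and set how myosin can bind. Many of these genes are switched on by serum response factor with its actin-sensing partners of the MRTF family, which bind a DNA element called the CArG box. Cells outside muscle also use them, in stress fibres, in wound-healing myofibroblasts and in epithelia that bend, and the budding of the optic vesicle from the forebrain is such a bending.

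The study profiled eye organoids, balls of neural tissue made by differentiating a mouse embryonic stem cell line with GFP knocked into 1 allele of Rax, an eye field gene. All came from that 1 line, and they were collected on culture day 6, when optic vesicles start to bud, and on culture day 4, before they do. Each day is 1 library of single-cell 3′ RNA counts, pooled from 3 experiments that cannot be told apart in the files. There are thus no replicate libraries, and every interval below covers counting error only, at 95%. The methods state that the cells of both days were released with papain in the presence of Y-27632, a kinase inhibitor.

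After the cell filter of the study, 6641 of 7446 day 6 barcodes and 8147 of 9114 day 4 barcodes remained. The day 6 cells had a median of 12514 UMIs (unique molecular identifiers, each standing for 1 captured RNA molecule), and the day 4 cells had 11216. The libraries shared 91 barcodes, 78 of them among cells kept on both days. Levels are given as CPM, counts per 1000000 UMIs of the same cells. Against the tissue label of retina progenitors, 7 optic vesicle markers such as Rax and Pax6 summed to 669 CPM in day 6 cells and 39.7 CPM in day 4 cells. On both days 9 pluripotency markers were found as well, with sums of 589 CPM in day 6 cells and 972 CPM in day 4 cells.

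The promoters of 6 members were found in the RefSeq table for GRCm38.p6, and 2 of them hold the CArG box, searched as CC and GG around 6 letters, on both strands, since the box reads alike on each. The 180 bases before the RefSeq start are shown for these 2, Acta2 and Myl9, because only their promoters held a box. Capitals mark each box, with at most 1 of the 6 inner letters other than A or T.
Acta2, chr19:34255374-34255553, minus strand: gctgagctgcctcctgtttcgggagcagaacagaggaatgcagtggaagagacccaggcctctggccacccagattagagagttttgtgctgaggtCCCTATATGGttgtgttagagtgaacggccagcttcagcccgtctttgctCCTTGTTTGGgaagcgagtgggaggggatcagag
Myl9, chr2:156775284-156775463, plus strand: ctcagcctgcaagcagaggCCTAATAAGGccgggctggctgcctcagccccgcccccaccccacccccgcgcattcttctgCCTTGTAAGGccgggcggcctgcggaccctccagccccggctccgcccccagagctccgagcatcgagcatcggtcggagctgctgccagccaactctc
The box CCTAATAAGG of Myl9 was the 1 exact match, and the others each had 1 inner letter other than A or T. Over 32851 promoters of the same 300 bases, 1.63% held an exact box and 9.98% a box with at most 1 such letter. The windows of Cnn1, Tpm1, Tpm2 and Cald1 held neither form. A match of letters is a description and not a measured binding site.

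Acta2 (ENSMUSG00000035783, GRCm38 chromosome 19, 34241090 to 34255590, minus strand) encodes the alpha-actin of smooth muscle filaments. Its UMIs numbered 3755 on day 6 and 70 on day 4. That was 42.8 CPM (41.4 to 44.2) in the day 6 library and 0.710 CPM (0.553 to 0.897) in the day 4 library. The day 6 level was 60.3-fold higher (47.6 to 77.5), the 5th highest ratio among the 6699 genes with a mean of at least 10 CPM. Acta2 reached that floor only through its day 6 level. With no cell filter the ratio was 39.2. With each cell thinned to 5000 UMIs, 10.9% of day 6 cells and 0.239% of day 4 cells had an Acta2 UMI.

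Tagln (chromosome 9, 45929619 to 45936058, minus strand) encodes transgelin, an actin-binding protein of smooth muscle. It had 17.2 CPM (16.4 to 18.1) in day 6 cells, against 2.73 CPM (2.41 to 3.07) in day 4 cells (ratio 6.32, 5.55 to 7.22). Thbs1 (chromosome 2, 118111876 to 118127133, plus strand) encodes thrombospondin 1, a secreted matrix protein and the member that is not part of the filaments. It had 8.77 CPM (8.16 to 9.41) in day 6 cells, against 1.23 CPM (1.02 to 1.47) in day 4 cells (ratio 7.15, 5.90 to 8.73). Both genes lay under the floor of 10 CPM, Tagln by a mean of 9.98 CPM.

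The regulatory light chain of myosin, Myl9 (chromosome 2, 156775420 to 156781658, plus strand), had 33.7 CPM (32.5 to 34.9) in day 6 cells, against 13.6 CPM (12.9 to 14.4) in day 4 cells (ratio 2.47, 2.31 to 2.63). Tpm1 (chromosome 9, 67022590 to 67049406, minus strand), a tropomyosin, had 326 CPM (323 to 330) in day 6 cells, against 121 CPM (118 to 123) in day 4 cells (ratio 2.71, 2.65 to 2.76). Cald1 (chromosome 6, 34598500 to 34775473, plus strand) encodes caldesmon, which restrains myosin on the filament. It had 97.8 CPM (95.8 to 99.9) in day 6 cells, against 54.4 CPM (53.0 to 55.9) in day 4 cells (ratio 1.80, 1.74 to 1.86).

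The other 2 members did not follow. Tpm2 (chromosome 4, 43514711 to 43523765, minus strand), the second tropomyosin, had 45.2 CPM (43.8 to 46.7) in day 6 cells, against 42.8 CPM (41.5 to 44.1) in day 4 cells (ratio 1.06, 1.01 to 1.10). Cnn1 (chromosome 9, 22099216 to 22109630, plus strand), which encodes calponin 1, went the other way, with 2.84 CPM (2.49 to 3.21) in day 6 cells, against 6.70 CPM (6.20 to 7.23) in day 4 cells. Its ratio was 0.423 (0.364 to 0.490), from 249 UMIs on day 6 and 661 on day 4.

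To count changes by size, a gene had to differ 1.5-fold or more, with an interval that left out 1 and a mean of 10 CPM or more. Of the 5 members at that floor, 4 were higher on day 6, 0 were lower and 1, Tpm2, was within the limits. Of all genes at the floor, 13.3% were higher and 6.28% lower by the same rule. Since members were chosen by their values in this comparison, nothing is read from these counts. Over all 8 members, whatever their level, 6 were higher, 1 was lower and 1 was within the limits. Their median log2 ratio was 1.37, beside 0.14 for all genes at the floor.

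**Figure D1:**
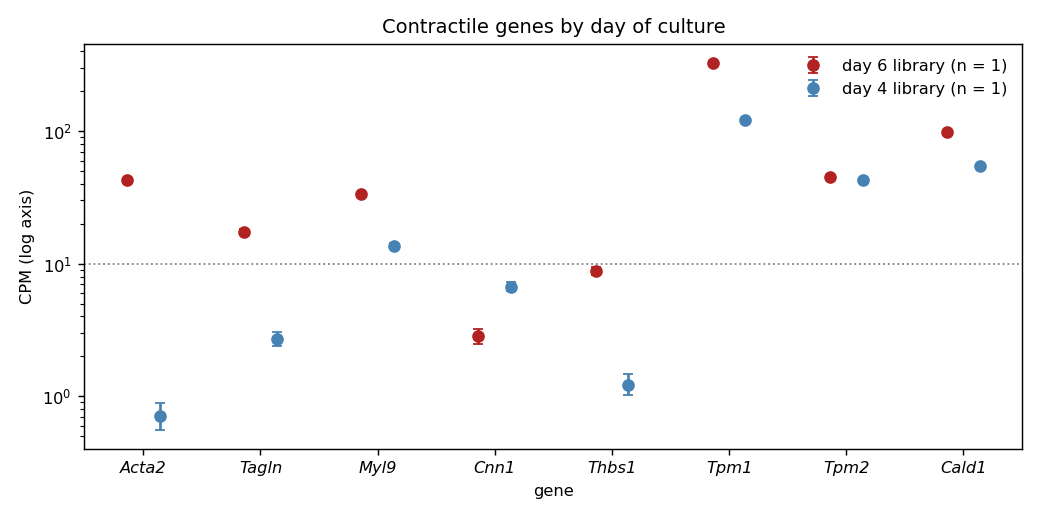
Level of each contractile gene in CPM on a log axis, with the day 6 library to the left of the day 4 library (1 library each), bars for the 95% Poisson counting interval and a dotted line at 10 CPM. Acta2 has the widest gap, 42.8 CPM in day 6 cells and 0.710 CPM in day 4 cells, Tpm2 the narrowest, and Cnn1 is the 1 member that lies lower on day 6.

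Of 10 genes that define mature smooth muscle, 7 lay under 1 CPM on both days. Myh11, the smooth muscle myosin heavy chain, had 4 UMIs on day 6 and 2 on day 4. Myocd, the activator of the smooth muscle programme, had 4 UMIs on day 6 and 6 on day 4, and Actg2, the gamma-actin of visceral muscle, had 6 UMIs on day 6 and 5 on day 4. The other 3 were found at the level of the weaker members. Des, the intermediate filament protein of all muscle, had 6.95 CPM in day 6 cells and 9.48 CPM in day 4 cells, Smtn, which encodes smoothelin, 5.11 CPM in day 6 cells and 6.90 CPM in day 4 cells, and the small heat shock gene Hspb6 2.31 CPM in day 6 cells and 1.89 CPM in day 4 cells. The 10 genes, each under the floor, summed to 15.5 CPM in day 6 cells and 19.9 CPM in day 4 cells. Of them, Pln was at 0 on day 6 and none was at 0 on day 4. The 11 mural and fibroblast markers, each under the floor, summed to 22.8 CPM in day 6 cells and 10.1 CPM in day 4 cells. Of these sums Thy1 gave 0.626 CPM on day 6 and 7.06 CPM on day 4. Col1a2 (12.1-fold), Prrx1 (8.10-fold) and Col3a1 (134-fold, from 2 UMIs on day 4) were higher on day 6, whereas Dcn was lower, as was Thy1. The 14 striated muscle genes summed to 29.5 CPM in day 6 cells and 48.0 CPM in day 4 cells. Whether a few cells of such types hold part of the members' UMIs was not tested.

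Other genes of the actin cytoskeleton moved less than Acta2. Of 14 paralogues of members, 8 were at the floor, and of these 3 were higher on day 6 and 0 lower: Tpm4, a tropomyosin (1.96-fold), Cnn3 (1.64-fold) and Cnn2 (1.54-fold), both calponins. Under the floor, Tagln3 (3.77-fold), Thbs4 (1.78-fold) and Acta1 (1.59-fold) were higher and Thbs2 was lower, at 0.204 (0.112 to 0.350). Of 10 serum response factor and MRTF genes at the floor, 3 were higher and 0 lower, namely the LIM domain genes Pdlim5 (2.04-fold), Fhl1 (2.01-fold) and Pdlim7 (1.56-fold). Under the floor, Filip1l (4.10-fold), Fhl2 (2.95-fold), Lmna (1.66-fold) and Egr1 (1.60-fold) were higher too. Srf itself had 15.2 CPM in day 6 cells and 14.1 CPM in day 4 cells (ratio 1.08, 0.997 to 1.16). The median log2 ratios of these 2 lists were 0.21 and 0.39, beside the 0.14 of all genes.

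Of 14 actin and actin-binding genes, 2 were higher and 0 lower, a share near the 13.3% of all genes, with Palld, a scaffold of stress fibres, at 3.88-fold (3.58 to 4.20) and Tmsb4x, which holds actin monomers, at 1.80-fold. Of 8 TGF-beta and YAP targets and matrix receptors at the floor, 4 were higher and 1 lower. Cyr61, a matrix protein and YAP target, was 7.87-fold higher (7.03 to 8.84), with 27.7 CPM in day 6 cells and 3.52 CPM in day 4 cells. Skil, a brake on TGF-beta signalling, was the 1 lower gene, at 0.423 (0.398 to 0.449). Mylk, the kinase that activates the light chain that Myl9 encodes, lay under the floor and is named after its values were seen: it had 9.93 CPM in day 6 cells and 0.882 CPM in day 4 cells (ratio 11.3, 9.03 to 14.2). Of 9 genes that dissociation is known to induce, 5 were at the floor, of which 3 were higher and 0 lower, with Fos at 2.82-fold and Jun at 2.11-fold. Under the floor, Fosb (2.76-fold), Hspa1a (2.28-fold) and Atf3 (2.06-fold) were higher too. Their part in the members' day values was not tested, and over day 6 cells the mean of those 9 genes had an r of 0.032 with the mean of the 8 members.

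The day 6 UMIs of Acta2 were packed into few cells. Acta2 and Tpm2 had like totals in that library, 3755 and 3971 UMIs, but Acta2 was found in 18.8% of cells and Tpm2 in 41.0%. The 332 cells with the most Acta2, which are 5% of all cells, held 66.4% of its UMIs, and the same share of cells held 26.5% of those of Tpm2. One cell held 75 Acta2 UMIs, and 59 cells held 10 or more. The corresponding share of UMIs in the top 5% of cells was 81.4% for Tagln and 44.7% for Myl9, and it was 24.9% for Tpm1 and 22.3% for Cald1. It was 62.7% for Thbs1 (770 UMIs) and 100% for Cnn1 (249 UMIs), which was found in only 200 cells. The share thus depends on a gene's total, so only Acta2 and Tpm2, with like totals, are compared here.

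**Figure D2:**
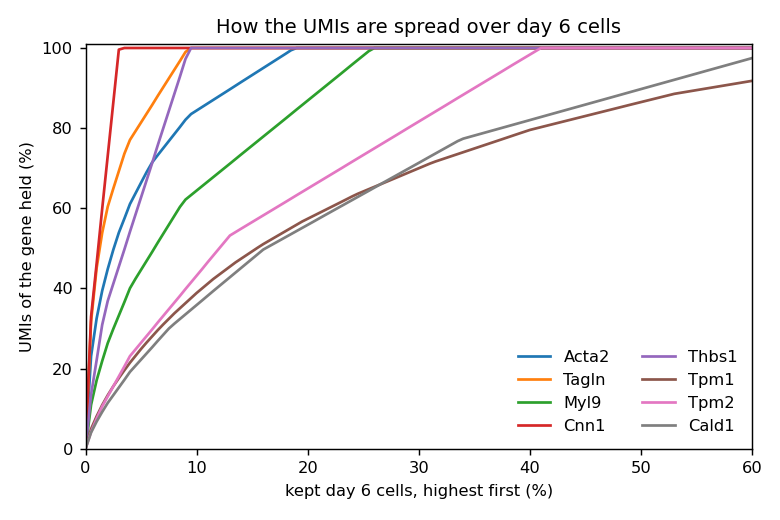
Share of a gene's UMIs (y axis, %) held by the day 6 cells with the most of that gene (x axis, % of 6641 cells, highest first), 1 line per member. Acta2 and Tpm2 have like totals, yet at 5% of cells the Acta2 line stands at 66.4% and the Tpm2 line at 26.5%.

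Cells rich in Acta2 were rich in the other members too. The 59 cells with 10 or more Acta2 UMIs had 433 CPM of Tagln (392 to 476), against 5.94 CPM (5.39 to 6.54) in the 5391 cells with none. Myl9 had 305 CPM (272 to 343) in these 59 cells, against 21.9 CPM (20.8 to 23.0) in cells without Acta2. Tpm1 stood at 1469 CPM (1393 to 1548) and 263 CPM (259 to 267) in the same 2 groups, and Cnn1 at 40.7 CPM (28.9 to 55.6) and 1.53 CPM (1.25 to 1.85). Tpm2 differed least, with 93.8 CPM (75.5 to 115) in Acta2-rich cells and 42.1 CPM (40.6 to 43.7) in cells without. The Acta2-rich cells were deeper, with a median of 15164 UMIs against 12272.

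With depth made equal by thinning, each of the other 7 members was found in a larger share of day 6 cells with an Acta2 UMI. Tagln was found in 18.1% of the 722 cells with an Acta2 UMI, against 3.31% of the 5919 cells without. Myl9 was found in 32.8% against 10.4%, Cnn1 in 3.46% against 0.912%, and Tpm1 in 83.9% against 63.4% of the same cells. For Thbs1 the shares were 6.79% and 3.73%, for Cald1 48.2% and 35.3%, and for Tpm2 26.7% and 19.0%.

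Correlation over cells was computed for the 28 pairs of members as Pearson r of the natural log of counts per 10000 plus 1, and is a description, since cells of a library share depth and free RNA. Over 6641 day 6 cells the median r was 0.144, with a range of 0.013 to 0.462. Over 8147 day 4 cells the median was 0.062, with a range of -0.003 to 0.185. On day 6 all 6 pairs over 0.3 joined Acta2, Tagln, Myl9 and Tpm1 to each other, led by Acta2 with Tagln at 0.46. On day 4 that pair was also the highest, at 0.19, and 0 pairs passed 0.3. Tpm2 and Thbs1 were the loosest pair on both days, at 0.01 on day 6 and -0.003 on day 4. With cells thinned to 5000 UMIs, an equal and lower depth, the median was 0.086 on day 6 and 0.026 on day 4, and 1 pair, Acta2 with Tagln at 0.34 on day 6, still passed 0.3.

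**Figure D3:**
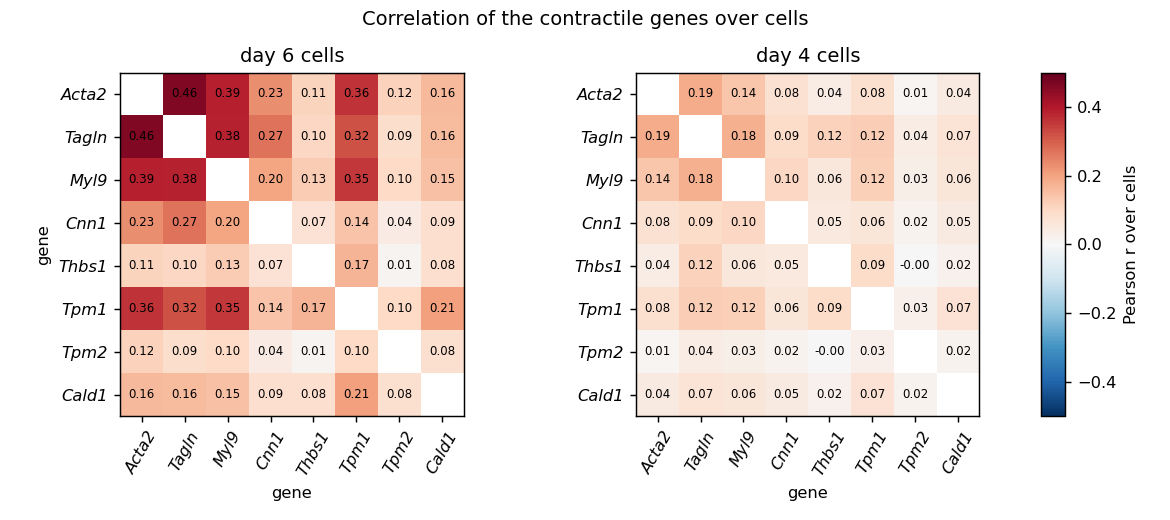
Pearson r of each pair of members over single cells (printed in each square), day 6 cells on the left and day 4 cells on the right, with both axes listing the 8 genes. The dark squares on day 6 are the 6 pairs of Acta2, Tagln, Myl9 and Tpm1, of which the highest is 0.46, and no day 4 square passes 0.19.

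Acta2 with Tagln was also the highest pair within the marker groups examined. In 1988 cells with Six6 as their only marker, Acta2 and Tagln had an r of 0.49 and the median pair 0.14. In 713 cells with Fezf2 as their only marker, the values were 0.46 and 0.17. In the latter cells Tagln with Tpm1 had 0.29 and Tagln with Cnn1 had 0.35, so the pairs over 0.3 were not the same as over all day 6 cells. The mean of the 8 members had an r between -0.103 and 0.092 with UMIs, genes, mitochondrial share, ribosomal share, S and G2M scores and the dissociation list on either day.

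The genes most like the members over day 6 cells, by r with the mean of the standardised members among 6613 genes at 10 CPM or more, were Mest (0.33), an imprinted gene, the calponin Cnn2 (0.32), the lactate dehydrogenase Ldha (0.28), Tmsb4x (0.27) and the cytokine Mif (0.27). Igfbp2, Tpi1, Net1, Lix1 and Myl6 followed at 0.27 to 0.23. The median gene had an r of 0.005 and the 99th percentile was 0.131. On day 4 the list was Actg1 (0.16), Abracl, Dstn, Myl12a, Myl6, Cnn2, Tpm4, Mdk, Fabp5 and Ldha (0.10). Cnn2, Ldha and Myl6 were thus named on both days. At the other end, and named after its values were seen, the pluripotency gene Dppa5a had the lowest r on both days, -0.17 each.

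Day 6 cells were then grouped by raw UMIs of 5 marker genes: Six6 of the optic vesicle, Fezf2 and Hesx1 of the anterior forebrain, Wnt8b of its dorsal edge and Sox10 of the neural crest. A cell entered a group when it had at least 1 UMI of that marker and 0 of the other 4. This gave 1988 Six6-only, 713 Fezf2-only, 320 Wnt8b-only, 188 Hesx1-only and 60 Sox10-only cells, beside 1395 cells with 2 or more markers and 1977 with none. Grouping by so few UMIs misses cells whose marker was not captured.

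Fezf2-only cells had the highest levels of Acta2, Tagln, Myl9, Thbs1 and Tpm1 among the groups with 1 marker, although for Tagln the interval overlapped that of Hesx1-only cells. Once pluripotency-marker cells were left out of the Hesx1-only group, as described below, the intervals of Acta2, Myl9 and Thbs1 overlapped as well. Acta2 had 73.8 CPM in Fezf2-only cells and 39.1 CPM in the other day 6 cells, a ratio of 1.89 (1.73 to 2.05). Thbs1 had 16.2 CPM in Fezf2-only cells and 7.89 CPM in the others, a ratio of 2.06 (1.71 to 2.46), and Tpm1 had 474 CPM and 309 CPM, a ratio of 1.53 (1.49 to 1.58). These 3 of 7 members at the floor were higher by size and 0 were lower, while 0.515% of all genes were higher and 1.37% lower. Thbs1 reached the floor only through its level in Fezf2-only cells, so its place in that count carries no weight. Tagln (1.46, 1.26 to 1.69) and Myl9 (1.45, 1.30 to 1.60) stayed under 1.5-fold, and Cald1 and Tpm2 had ratios of 1.22 and 1.04. Cnn1, under the floor, had a ratio of 1.93 (1.37 to 2.66). Tpm1 fell within the limits with no cell filter (1.43), without pluripotency-marker cells (1.47), after thinning (1.49) and with the other 4 markers ignored (1.46), where Tagln (1.66) and Myl9 (1.51) passed them. The median log2 ratio of the members was 0.58, beside 0.00 for all genes at the floor, and 0 of the 8 paralogues and 0 of 13 serum response factor and MRTF genes at the floor were called. Under the floor the paralogue Actc1, the alpha-actin of the heart, had a ratio of 2.65 (1.95 to 3.54).

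Six6-only cells sat near the average of the library. Acta2 had 40.5 CPM in Six6-only cells and 43.7 CPM in the other day 6 cells, and the ratios of the 6 members at the floor ran between 0.828 and 1.11. Of these, 0 were higher and 0 lower, beside 1.46% and 3.34% of all genes. With the other 4 markers ignored, the ratio rose to 1.16 for Acta2, 1.31 for Tagln and 1.33 for Myl9, still within the limits. Under the floor, Thbs1 had 4.91 CPM in Six6-only cells and 10.4 CPM in the others, a ratio of 0.473 (0.388 to 0.573), and Cnn1 had a ratio of 0.617 (0.444 to 0.843). The 1977 cells with no marker had less Acta2 than Six6-only cells, 28.9 CPM (26.8 to 31.2), and less Myl9, 24.0 CPM against 36.2 CPM. They had more Thbs1, 7.27 CPM (6.23 to 8.44), and more Cald1, 97.0 CPM against 85.3 CPM.

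Set directly against Six6-only cells, a comparison added after the values were seen, Fezf2-only cells had 3.31-fold more Thbs1 (2.59 to 4.22), 1.82-fold more Acta2 (1.65 to 2.01) and 1.55-fold more Tpm1 (1.49 to 1.60). These were 3 of 7 members at the floor, with 0 lower, beside 1.87% of all genes higher and 1.41% lower. Here too Thbs1 reached the floor only through its level in Fezf2-only cells. Cnn1, under the floor, was 2.52-fold higher (1.66 to 3.84), an interval that overlaps that of Thbs1. The 551 cells that held UMIs of both markers had 15.0 CPM of Thbs1 (12.4 to 17.9), and the 1272 cells with Fezf2 but no Six6 UMI also had 15.0 CPM (13.2 to 16.9). The 2251 cells with Six6 but no Fezf2 UMI had 5.12 CPM (4.34 to 6.00), and the 2567 cells with neither had 7.18 CPM (6.29 to 8.17). The level of Thbs1 therefore differed with Fezf2 among cells with Six6 and among cells without it. This was not particular to Thbs1. In cells with both markers, Six6 without Fezf2, Fezf2 without Six6 and neither, Acta2 had 71.5, 39.5, 62.6 and 27.7 CPM. Tpm1 had 421, 307, 420 and 269 CPM in the same order. For Tpm2 the intervals overlapped among cells without Six6, with 48.0 CPM (44.8 to 51.3) and 45.6 CPM (43.3 to 48.0).

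Wnt8b-only cells were low in Acta2, Tagln and Myl9 among the members at the floor. Acta2 had 11.0 CPM in Wnt8b-only cells and 44.4 CPM in the other day 6 cells, a ratio of 0.249 (0.182 to 0.331). Tagln had 4.23 CPM and 17.9 CPM in the same groups, a ratio of 0.236 (0.140 to 0.375), and Myl9 had 17.4 CPM and 34.5 CPM, a ratio of 0.504 (0.394 to 0.635). These 3 of 6 members at the floor were lower and 0 higher, while 2.31% of all genes were lower and 1.95% higher. Tagln reached the floor only through its level in the other day 6 cells, so its place in that count carries no weight. Thbs1, under the floor, had a ratio of 0.604 (0.381 to 0.913). Tpm1 (0.733), Tpm2 (0.888) and Cald1 (0.893) stayed within the limits. With the other 4 markers ignored, the ratio of Acta2 was 0.551, that of Tagln 0.455 and that of Myl9 0.740, which is within the limits and leaves 2 members lower. The ratio of Acta2 was 0.145 after thinning and 0.402 with no cell filter, and that of Myl9 was 0.278 with 2 or more Wnt8b UMIs asked for. Of Fezf2-only cells, 1.54% (exact interval 0.773 to 2.74) held 10 or more Acta2 UMIs, and none of the 320 Wnt8b-only cells did, which allows a share of up to 0.938% by a count of 3 and 1.15% by the exact interval. The exact intervals of these shares overlap. The share was 1.60% (0.330 to 4.59) in Hesx1-only cells and 0.805% (0.461 to 1.30) in Six6-only cells.

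Members did not differ in one direction in Sox10-only cells. Their 60 cells held 1 Acta2 UMI, or 1.05 CPM against 43.2 CPM in the other day 6 cells, a ratio of 0.024 (0.001 to 0.136). Myl9 had 5.27 CPM in Sox10-only cells and 34.0 CPM in the others (ratio 0.155, 0.050 to 0.362), and Tpm1 had 150 CPM and 328 CPM (ratio 0.456, 0.384 to 0.538). Tagln had a ratio of 0.425 (0.171 to 0.879) from 7 UMIs. Cald1 was higher, with 154 CPM in Sox10-only cells and 97.2 CPM in the others, a ratio of 1.58 (1.33 to 1.86). With cells thinned to 5000 UMIs the ratio of Cald1 was 1.29 and that of Tagln 0.976, both within the limits. The count of lower members was 3 after thinning, without the 5% deepest cells, with the mean over cells and with 2 or more Sox10 UMIs asked for. Over all alternatives the ratio of Myl9 ran from 0.0728 to 0.296 and that of Tpm1 from 0.293 to 0.552. Of 6 members at the floor, 4 were lower and 1 higher, in a comparison where 8.44% of all genes were lower and 6.66% higher. Acta2, Tagln and Myl9 reached the floor only through their levels in the other day 6 cells, so their places in that count carry no weight. Cnn1 had 0 UMIs, and Thbs1 had 1. In these cells the 11 mural and fibroblast markers summed to 121 CPM and the 8 neural crest markers to 610 CPM, of which 103 CPM came from Sox10, the gene that defined the group.

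Hesx1-only cells showed 0 of 6 members higher and 0 lower, beside 3.59% and 4.99% of all genes. This group was a mixture: its 9 pluripotency markers summed to 1845 CPM, against 70.9 to 243 CPM in the other single-marker groups. Of the 1845 CPM, 1576 CPM came from Dppa5a, which had 57.3 to 212 CPM in the other groups. The 39 Hesx1-only cells with UMIs of at least 3 pluripotency markers had 5.92 CPM of Acta2 (1.61 to 15.2) and 0 Tagln UMIs. The 149 Hesx1-only cells without them had 64.2 CPM of Acta2 (53.6 to 76.1), 24.0 CPM of Tagln (17.8 to 31.7) and 11.8 CPM of Thbs1 (7.53 to 17.5). Over all day 6 cells, the 505 pluripotency-marker cells had 3.88 CPM of Acta2 (2.60 to 5.57) and the 199 endoderm-marker cells 6.78 CPM (4.02 to 10.7).

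**Figure D4:**
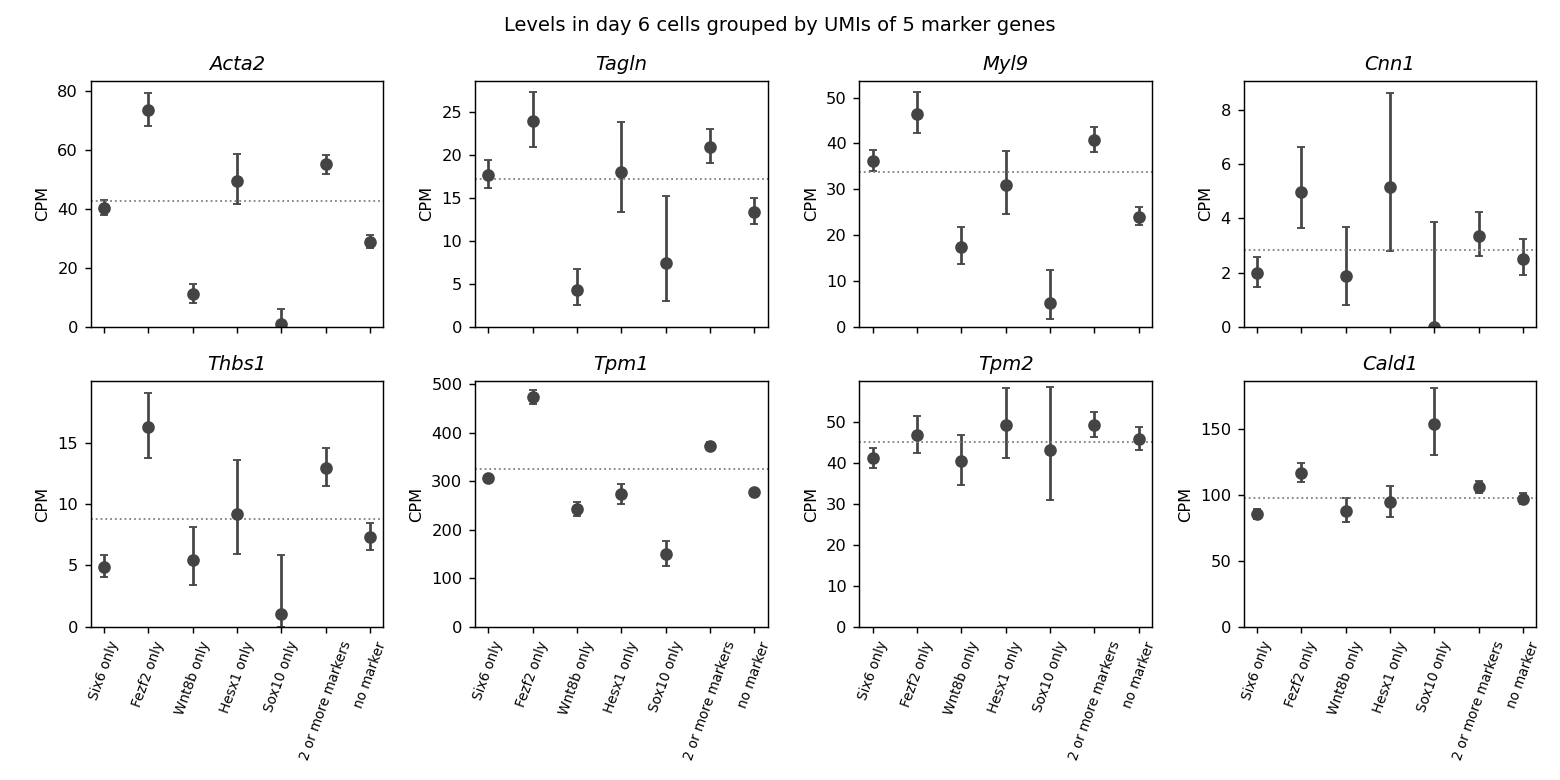
Level in CPM (y axis, from 0, a panel per gene) in day 6 cells grouped by UMIs of Six6, Fezf2, Wnt8b, Hesx1 and Sox10 (x axis), with 95% Poisson counting intervals and a dotted line at the level of all day 6 cells. Acta2 runs from 1.05 CPM in Sox10-only to 73.8 CPM in Fezf2-only cells, whereas Tpm2 stays between 40.4 and 49.3 CPM in every group.

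Over the number of marker UMIs some members climbed or declined by steps and others turned back. In cells with 0, 1, 2, and 3 or more Fezf2 UMIs, Thbs1 had 6.19, 12.3, 16.3 and 19.4 CPM, and Tpm1 had 287, 393, 441 and 459 CPM. The intervals of Thbs1 overlapped between 1 and 2 UMIs and between 2 and 3 or more, and those of Tpm1 between 2 and 3 or more. Acta2 had 33.4, 62.2, 71.6 and 66.4 CPM over the same steps, and the intervals of the last 3 steps overlapped. Tagln had 14.4, 25.2, 29.1 and 16.6 CPM, so its last step was back near the first. Over the steps of Wnt8b UMIs, Acta2 had 45.5, 28.7, 23.6 and 18.7 CPM and Myl9 34.9, 33.0, 21.5 and 14.6 CPM. For Acta2 the intervals of neighbouring steps overlapped from 1 UMI on. For Myl9 they overlapped between 0 and 1 UMI and between 2 and 3 or more. Over the steps of Six6 UMIs, Thbs1 had 9.95, 10.3, 9.34 and 5.03 CPM, and the last step alone stood apart, while Acta2 had 40.0, 53.1, 55.9 and 39.9 CPM. Over those of Hesx1, Acta2 had 40.4, 48.5, 78.4 and 70.4 CPM. Deeper cells have more UMIs of every gene, and how much of these steps follows depth was not tested.

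**Figure D5:**
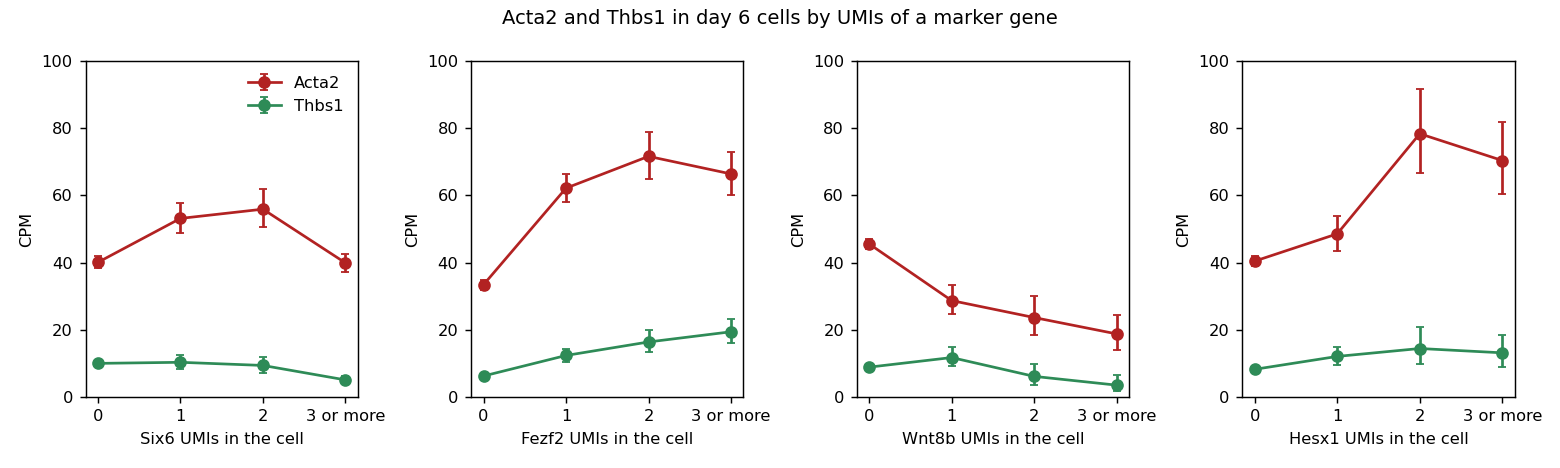
CPM of Acta2 (red) and Thbs1 (green) in day 6 cells with 0, 1, 2, and 3 or more UMIs of Six6, Fezf2, Wnt8b or Hesx1 (a panel each), with 95% Poisson counting intervals. Thbs1 climbs over the Fezf2 steps to 19.4 CPM, and Acta2 declines over the Wnt8b steps to 18.7 CPM. In both cases the intervals of neighbouring steps overlap from 1 UMI on. In the Six6 panel Thbs1 is lowest at 3 or more UMIs (5.03 CPM).

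On day 4 the few Acta2 UMIs were not spread evenly, a pattern noticed after the values were seen. The 85 day 4 cells with a Six6 UMI held 25 of the 70 Acta2 UMIs, or 22.5 CPM, against 0.461 CPM in the 8062 other day 4 cells. The ratio was 48.9 (28.7 to 81.4), and the UMIs lay in 6 cells, of which 1 held 12. Without that cell the level was 11.9 CPM. In the same 85 cells Tagln had 11.7 CPM against 2.62 CPM in the others, a ratio of 4.47 (2.35 to 7.78), and Myl9 had 38.8 CPM against 13.4 CPM, a ratio of 2.90 (2.09 to 3.93). Tpm1 had 201 CPM against 120 CPM, a ratio of 1.68 (1.47 to 1.92). Cnn1, Tpm2, Cald1 and Thbs1 had intervals that held 1. Of the 86 kept day 4 cells whose barcode also occurs in the day 6 library, 0 held a Six6 or an Acta2 UMI. Of all 8147 day 4 cells only 85 held a Six6 UMI and 41 an Acta2 UMI, so few or none would be found among any 86.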

How the data were processed

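Single cells of eye organoids were profiled with the 10x 3′ v2 chemistry, 1 library per day. Per the labels, the authors used Cell Ranger 2.0.1, Seurat 2.3.4 and mm10, and they deposited whole-number UMI counts per gene and cell, which were used as given. The paper's methods name later versions of both tools, and they state more cells per day than the deposited barcodes, so the kept cells are not those of the paper. Counting at the 3′ end is not per length, so levels were compared between cells and not between genes.

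Cells were kept by the limits of the study: 500 to 5000 genes, 500 to 26000 UMIs, at most 10% mitochondrial, at least 20% ribosomal protein and at most 0.5% haemoglobin counts. The study does not define the ribosomal genes. Symbols starting with Rps or Rpl were used (113 genes) after 3 definitions had been tried. A definition by a following digit kept 6639 and 8146 cells, and the other 2 kept 6641 and 8147 (day 6 and day 4). Neither doublets nor free RNA were corrected for.

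Levels are summed UMIs of a gene over the total of the cells, with exact Poisson intervals for levels, exact conditional binomial intervals for ratios and exact Clopper-Pearson intervals for shares. With 1 library per day no test across samples was possible, and no p-value was computed. The calling was also run on simulated Poisson totals per gene. Such totals are not packed into few cells as the Acta2 UMIs were, so that run cannot vouch for calls on such genes. Cells were thinned to 5000 UMIs where stated, leaving out 182 day 4 cells. Gene positions are from GENCODE M21 (GRCm38). Of 168 list entries, 167 were found, and 1 list is not reported here. The members, the gene lists and the groups were chosen with earlier results of these data known. Named are the 8 members, the 10 genes most like them per day, up to 3 genes per list with the largest change, and cell type markers. Python 3.11.15, numpy 2.4.6 and scipy 1.17.1 were used.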

Additional observations from a re-analysis of the deposited data

Results flagged for a closer look

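The UMI limit of the study left out 792 day 6 barcodes and 960 day 4 barcodes with more than 26000 UMIs, which enter none of the comparisons above. The share of all genes that differ by day in these barcodes was not computed, and the members were chosen by their day values. The levels that follow are thus descriptions only. Acta2 had 53.7 CPM in these day 6 barcodes and 2.46 CPM in the day 4 ones. Thbs1 had 11.9 CPM in the day 6 barcodes and 1.41 CPM in the day 4 ones, and Tagln 18.0 CPM and 3.13 CPM. Tpm1 had 394 CPM in the day 6 barcodes and 119 CPM in the day 4 ones, Myl9 36.1 CPM and 11.4 CPM, and Cald1 94.7 CPM and 51.3 CPM. Tpm2 had 46.4 CPM on day 6 and 38.9 CPM on day 4. Cnn1 went the other way, at 3.02 CPM (2.43 to 3.72) in the day 6 barcodes, against 7.44 CPM (6.55 to 8.41) in the day 4 ones. Barcodes this deep can hold more than 1 cell, which was not tested.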

How the results depend on the processing

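Of 849 values recomputed under alternatives, 0 changed direction among those called. The day ratio of Acta2 ran from 39.2 with no cell filter to 68.4 after thinning, that of Cnn1 from 0.381 to 0.431 and that of Tpm2 from 0.959 to 1.09. With no CPM floor, chosen after seeing the data, 1 member was lower on day 6 (Cnn1), 2 were lower in Six6-only cells and 1 was higher in Hesx1-only cells. In Six6-only cells 1 member was lower with totals that leave out mitochondrial and ribosomal genes. In Hesx1 cells 1 member was higher with 2 or more UMIs asked for, and 1 with the other 4 markers ignored. In Sox10-only cells 0 members were higher after thinning and 0 with a 2-fold limit, and in Fezf2-only cells 1 was higher with a 2-fold limit. Thinning brought the median correlation to 0.0865 on day 6 and 0.0260 on day 4. The other 170 counts and correlations stayed within 1.5 times or their interval. Of the ratios of single members and the background shares, 596 stayed within their interval or 1.5 times and 72 did not. With 1 library per day, day and library cannot be told apart, and the 60 Sox10-only cells limit every value given for them.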
